A study of Homo sapiens with 6 samples.

Results

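The genes described here were 36 aminoacyl-tRNA synthetase genes and 3 genes for the scaffold proteins of the multisynthetase complex. They were picked by gene symbol, and all 39 were found among the 15894 genes measured. By the place where the enzyme works, 20 were cytosolic synthetases and 16 were mitochondrial synthetases. Symbols are given as the deposited annotation spells them, so that AARS stands for the gene now named AARS1. Expression was measured in RKO, a cell line from a human colon carcinoma, on 6 Affymetrix PrimeView arrays. The shEV group (3 arrays) held cells transfected with a control vector, whose treatment label calls it empty and also lists a nonsense hairpin sequence. The shCIRC group (3 arrays) held cells transfected with 1 short hairpin RNA against the circular RNA hsa_circ_0064559. Both groups were grown in the same medium with serum, and 6 µg of total RNA was labelled per array. The comparison asked which genes differ in expression after the circular RNA was targeted, and only 1 hairpin was used for it. The circular RNA had no matched probe set, and its knockdown was therefore not checked on these arrays. Whether the 3 arrays of a group stand for separate cultures is not stated in the labels, and p-values here reflect only the spread between arrays, which may be technical. In bulk RNA, fewer expressing cells and less RNA per cell cannot be told apart.

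Aminoacyl-tRNA synthetases join each amino acid to its own tRNA, the step that sets which residue the ribosome inserts for a codon. Human cells use separate nuclear genes for the mitochondrial set, whose symbols end in 2. GARS and KARS serve both compartments, and EPRS charges both glutamate and proline tRNAs with 1 polypeptide. In the cytosol several synthetases are bound in the multisynthetase complex, held together by the scaffold proteins AIMP1, AIMP2 and EEF1E1. Uncharged tRNA activates the kinase GCN2 (EIF2AK4), which phosphorylates the translation factor eIF2 and thereby favours synthesis of the transcription factor ATF4. Many cytosolic synthetase genes are known ATF4 targets and carry an ATF-C/EBP composite element near their start, whereas WARS is also known as an interferon-induced gene.

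The element was searched for in RefSeq promoter windows (GRCh38.p14, from 250 bases before to 50 after the gene start), which were found for 33 of the 39 genes. VARS2, YARS, LARS, DARS, AARS2 and VARS were not matched to a window. The letters searched were TGATGNAA on both strands, where N is any base and no overlap with another motif was required. They occurred in 7 of 16 cytosolic windows (43.8%), in 1 of 14 mitochondrial windows (7.14%) and in 0 of 3 scaffold windows. Over all 27305 genes with a window the share was 4.46%, and over the 12516 of these measured on the arrays it was 3.25%. The 8 windows are shown because they mark the members that carry the letters. Each line gives 30 bases on the gene's strand, 5′ to 3′, with the match in capitals.
AARS, chr16:70289675-70289704, minus strand: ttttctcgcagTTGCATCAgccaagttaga
CARS, chr11:3057407-3057436, minus strand: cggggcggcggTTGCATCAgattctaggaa
GARS, chr7:30594834-30594863, plus strand: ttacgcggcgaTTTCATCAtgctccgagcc
IARS, chr9:92293692-92293721, minus strand: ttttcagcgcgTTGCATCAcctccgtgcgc
MARS, chr12:57488053-57488082, plus strand: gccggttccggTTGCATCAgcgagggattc
NARS, chr18:57621804-57621833, minus strand: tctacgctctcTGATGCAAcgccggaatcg
TARS, chr5:33440956-33440985, plus strand: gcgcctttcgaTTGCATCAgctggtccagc
YARS2, chr12:32756076-32756105, minus strand: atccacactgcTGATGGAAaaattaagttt
A match to these letters is a description of the window and not a binding site.

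Over all 49395 deposited probe sets, the arrays were alike in level, with medians between 6.82 and 6.85 on the log2 scale. Pearson correlations over these probe sets were 0.998 to 0.999 within a group and 0.992 between groups. Centring on the array medians of the 15894 genes measured is described below. A gene was called higher or lower where limma's adjusted p (Benjamini-Hochberg over all genes) was under 0.05, with no minimum fold. Under this call 47.5% of all genes measured differed, 22.8% higher and 24.7% lower in shCIRC, and 56% had groups of arrays that did not overlap. With a minimum fold of 1.3 added, 16.9% were called. The probe sets for 5′ and 3′ ends of control transcripts also differed between the groups. The 3′ minus 5′ difference of log2 signal for GAPDH was −0.16 ± 0.02 (SD, n = 3) in shEV and −0.30 ± 0.02 in shCIRC, and that for ACTB was 0.13 ± 0.02 and −0.01 ± 0.03. The part of this RNA quality measure in the results was not tested.

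Among the 39 genes, 21 were higher in shCIRC, 7 were lower and 11 were not called. The higher share was 53.8% beside 22.8% of all genes measured, and the lower share was 17.9% beside 24.7%. The median log2 fold change was 0.11 over the 39 genes and −0.00 over all genes, where the quartiles were −0.14 and 0.13. The members are bright on the array, with 37 of 39 above the median brightness of all genes, and bright genes were called more often. Among the 7947 genes above the median brightness, 34.2% were called higher and 34.9% lower. The groups did not overlap for 32 of the 39 genes, beside 56% of all genes measured. The share without overlap among bright genes was not computed. With the minimum fold of 1.3, 5 of the 39 were higher and 2 were lower. Of all 15894 genes, 1183 were higher and 1498 were lower at that fold, 16.9% in either direction. Centring each array on its median instead moved the median of all genes to 0.07 and the share of higher genes among those called from 47.9% to 62.8%. Under that centring 26 members were higher and 5 lower.

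**Figure D1:**
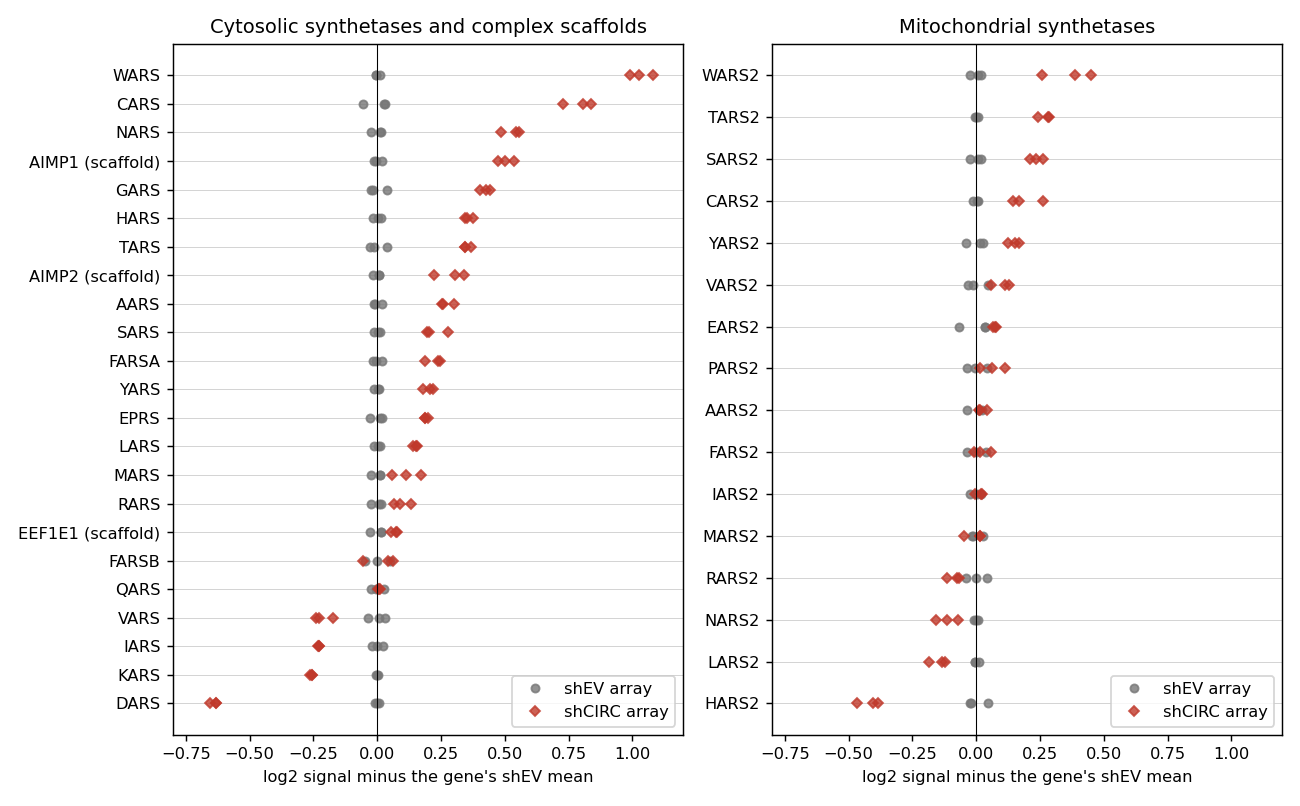
Deposited log2 signal of each member on each array, minus the mean of the 3 shEV arrays, with 1 row per gene, grey circles for shEV arrays and red diamonds for shCIRC arrays. WARS and CARS lie farthest to the higher side in shCIRC, DARS and HARS2 farthest to the lower side.

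Cytosolic synthetases as a group were mostly higher. Of 20 genes, 14 were higher, 4 were lower and 2 were not called, with a median log2 fold change of 0.20. All 20 were above the median brightness, so the 70.0% called higher and the 4 of 20 called lower stand beside the 34.2% and 34.9% of bright genes. The 12 enzymes that work outside the multisynthetase complex had a median of 0.31, with 10 higher, 1 lower and 1 not called. The 8 enzymes of the complex had a median of 0.05, with 4 higher, 3 lower and 1 not called.

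WARS, the tryptophan enzyme, rose the most among the members. Its log2 signal was 11.16, 11.17 and 11.16 on the shEV arrays and 12.19, 12.15 and 12.24 on the shCIRC arrays. The groups lay far apart compared with the spread within each. The log2 fold change was 1.03 (SE 0.03, n = 3 against 3), a 2.05-fold higher signal, with a limma adjusted p of 3.7e-06. All 4 WARS probe sets were called higher, with log2 fold changes from 0.49 to 1.37. The deposited annotation places the gene on chromosome 14 from 100800126 to 100841948, in a genome build that the labels and methods do not state. The promoter window of WARS held the letters of the interferon-stimulated element, GAAANNGAAA, and not those of the ATF-C/EBP composite element. It is the only cytosolic window of 16 with that element, which occurred in 4.38% of all windows and in 4.003% of those of measured genes. Of 14 mitochondrial windows 1 also held these letters, that of EARS2, which was not called (0.07, limma adjusted p 0.17). The WARS stretch is shown because WARS was the member that rose most.
WARS, GRCh38.p14 chr14:100375383-100375412, minus strand: tttcagaaggGAAACTGAAAgaaagagggg

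CARS, the cysteine enzyme, was second. Its log2 signal was 9.35, 9.44 and 9.43 in shEV and 10.14, 10.25 and 10.22 in shCIRC. The log2 fold change was 0.79 (SE 0.04), or 1.73-fold, with a limma adjusted p of 1.7e-05. Its 3 probe sets were close to each other, from 0.76 to 0.79, although the brightest is of a kind that may cross-match other transcripts.

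NARS charges asparagine tRNA, and its signal was 12.26, 12.23 and 12.27 in shEV against 12.81, 12.74 and 12.80 in shCIRC. Its log2 fold change was 0.53 (SE 0.03), or 1.44-fold, with a limma adjusted p of 3e-05. The 4 NARS probe sets were all called higher but covered a range from 0.53 to 1.14. GARS, the glycine enzyme of both compartments, had 12.15, 12.15 and 12.21 in shEV against 12.60, 12.61 and 12.57 in shCIRC, a log2 fold change of 0.42 (SE 0.03, adjusted p 6.4e-05 by limma). Its 2 probe sets gave 0.41 and 0.42. These 4 genes were the cytosolic members above a fold of 1.3.

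HARS and TARS, the histidine and threonine enzymes, came next. HARS rose from 10.78, 10.76 and 10.79 to 11.15, 11.12 and 11.12, a log2 fold change of 0.36 (SE 0.03, limma adjusted p 8.2e-05). TARS rose from 12.01, 12.08 and 12.03 to 12.39, 12.38 and 12.41, a change of 0.35 (limma adjusted p 0.00014). All 3 probe sets of each gene were called higher. AARS, the alanine enzyme, rose from 10.97, 10.97 and 10.999 to 11.23, 11.28 and 11.24 (0.27, adjusted p 0.00034 by limma). Smaller rises were measured for SARS (serine, 0.22), FARSA (the α subunit of the phenylalanine enzyme, 0.22) and YARS (tyrosine, 0.20). Each of these last 3 rests on 1 probe set, and the annotation aligns that of YARS to a short stretch only. No shCIRC array of these genes fell within the shEV range.

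FARSB, the β subunit that joins FARSA in 1 enzyme, was not called. Its signal was 10.97, 11.02 and 10.92 in shEV and 11.03, 11.01 and 10.92 in shCIRC, with overlapping groups and a log2 fold change of 0.02 (SE 0.04, limma adjusted p 0.79). None of its 5 probe sets was called, and they ranged from −0.08 to 0.04. The difference between the subunits was not tested. VARS, the valine enzyme, was the free cytosolic enzyme that fell. Its signal went from 10.39, 10.46 and 10.43 to 10.20, 10.19 and 10.25 (−0.22, SE 0.03, limma adjusted p 0.0021), and 2 of its 4 probe sets were called lower, the others reaching 0.03.

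Within the multisynthetase complex the members moved in both directions. DARS, the aspartate enzyme, had the deepest fall of all members. Its signal was 12.13, 12.13 and 12.14 on the shEV arrays and 11.48, 11.50 and 11.50 on the shCIRC arrays. The log2 fold change was −0.64 (SE 0.03), a ratio of 0.641, with a limma adjusted p of 7.9e-06. All 3 DARS probe sets were lower, from −0.69 to −0.48. In the deposited annotation it lies on chromosome 2 from 136664717 to 136743062. KARS, the lysine enzyme of both compartments, fell from 12.62, 12.61 and 12.62 to 12.36 on each of the 3 shCIRC arrays (−0.26, limma adjusted p 0.00026). IARS, the isoleucine enzyme, fell from 13.09, 13.04 and 13.06 to 12.84, 12.84 and 12.83 (−0.23, limma adjusted p 0.00063). Each probe set of KARS (2) and of IARS (4) was called lower. IARS was the member with the ATF-C/EBP letters in its window that fell.

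The 4 complex enzymes that rose did so by small amounts. EPRS went from 11.56, 11.60 and 11.60 to 11.77, 11.77 and 11.79 (0.19, limma adjusted p 0.0015), but its other probe set gave 0.03 and was not called. LARS, the leucine enzyme, went from 12.25, 12.27 and 12.28 to 12.41, 12.42 and 12.42 (0.15, limma adjusted p 0.0037), with 2 of 3 probe sets called. MARS, the methionine enzyme, gave 0.11 (SE 0.04, limma adjusted p 0.043) and RARS, the arginine enzyme, gave 0.10 (SE 0.03, limma adjusted p 0.046). The MARS call was lost when any 1 array other than shCIRC replicate 1 was left out (adjusted p 0.088 to 0.12), and the RARS call when any 1 array other than shCIRC replicate 2 was left out (0.081 to 0.14). QARS, the glutamine enzyme, was not called (0.01, SE 0.03, limma adjusted p 0.86). Its second probe set was nevertheless higher by 0.30 (limma p adjusted over all probe sets 0.00066).

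Of the scaffold genes, 2 of 3 were higher and 0 were lower. All 3 were above the median brightness, where 34.2% of genes were called higher and 34.9% lower. AIMP1 rose from 10.28, 10.30 and 10.27 to 10.82, 10.76 and 10.78, a log2 fold change of 0.50 (SE 0.03), or 1.42-fold, with a limma adjusted p of 2.6e-05. All 5 AIMP1 probe sets were called higher, from 0.41 to 0.53. AIMP2 rose from 10.46, 10.48 and 10.48 to 10.70, 10.82 and 10.78 (0.29, SE 0.04, limma adjusted p 0.00087). EEF1E1, measured by 1 probe set, had non-overlapping groups but was not called (0.07, limma adjusted p 0.11).

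Of the 16 mitochondrial synthetases, 5 were higher (31.2%), 3 were lower (18.8%) and 8 were not called, with a median log2 fold change of 0.04. With 14 of the 16 above the median brightness, the higher share was near the 34.2% of bright genes, and the lower share stands beside 34.9%. These counts moved with the scaling. Quantile normalization applied again gave 8 higher, 3 lower and a median of 0.0903, beside a median of 0.0055 over all genes. Centring each array on its median gave 9 higher, 1 lower and a median of 0.11. That centring moved all genes too, to a median of 0.07. Of the 15894 genes 5059 were then higher and 3000 lower, against 3618 and 3928 without it. No test compared the mitochondrial with the cytosolic group as a whole. WARS2, the mitochondrial tryptophan enzyme, had the largest rise of these, from 8.88, 8.87 and 8.84 to 9.12, 9.31 and 9.25. Its log2 fold change was 0.37 (SE 0.05), or 1.29-fold, with a limma adjusted p of 0.0012, and its 3 probe sets ranged from 0.37 to 0.55. TARS2 (threonine) rose from 9.70, 9.71 and 9.69 to 9.94, 9.98 and 9.98 (0.27, limma adjusted p 0.0003), with both probe sets called. SARS2 (serine, 0.24), CARS2 (cysteine, 0.19) and YARS2 (tyrosine, 0.15) were also higher. For SARS2, 1 of 2 probe sets was called, and for CARS2, 2 of 3.

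HARS2, the mitochondrial histidine enzyme, was the mitochondrial gene with the deepest fall. Its signal was 8.85, 8.84 and 8.91 in shEV and 8.48, 8.40 and 8.46 in shCIRC. The log2 fold change was −0.42 (SE 0.04), a ratio of 0.749, with a limma adjusted p of 0.00013, and both probe sets were called lower. LARS2 (leucine) gave −0.15 (limma adjusted p 0.0069), and NARS2 (asparagine) gave −0.11 (SE 0.03, limma adjusted p 0.025), each from 1 probe set. The NARS2 call was lost when any 1 array other than shCIRC replicate 2 was left out (adjusted p 0.062 to 0.076). The 8 genes not called ranged from −0.09 for RARS2 (arginine) to 0.10 for VARS2 (valine). VARS2 passed without shCIRC replicate 1 (0.12, adjusted p 0.044). AARS2, FARS2, IARS2 and MARS2, which charge alanine, phenylalanine, isoleucine and methionine, all lay between −0.01 and 0.02.

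To set the compartments against each other for the same amino acid, the log2 signal of the mitochondrial gene was subtracted from that of the cytosolic gene on each array. The change of this difference between groups was then compared over 16 pairs, with EPRS entering both the glutamate and the proline pair. For phenylalanine only the FARSA subunit was paired with FARS2. The other subunit, FARSB, changed by 0.02, as did FARS2, and that pair was not computed, so the phenylalanine result holds for FARSA only. The cytosolic gene changed more towards higher in 12 pairs and more towards lower in 2, with arrays that did not overlap, and 2 pairs overlapped. For single genes 56% of all genes measured had groups that did not overlap, and the share among pairs of other genes was not computed, so the count of 14 is a description of these pairs only. The exact two-sided permutation test gave p = 0.1 for each of the 14 pairs without overlap, the smallest p that 3 arrays against 3 allow, and 0.114 after adjustment over the 16 pairs, so none could pass 0.05.

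The histidine pair differed most, by 0.78 (SE 0.02), with HARS higher and HARS2 lower. Tryptophan (0.67, SE 0.07), asparagine (0.64, SE 0.05) and cysteine (0.60, SE 0.04) followed. Leucine (0.30), alanine (0.25), phenylalanine with FARSA (0.20), arginine (0.18), proline (0.13), methionine (0.12), glutamate (0.12) and threonine (0.08, SE 0.02) completed the pairs on this side. The valine (−0.32, SE 0.03) and isoleucine (−0.24, SE 0.02) pairs ran the other way. The tyrosine pair (0.05, SE 0.03) and the serine pair (−0.01, SE 0.04) overlapped between groups. Both genes of a pair were called the same way for 5 pairs, and opposite ways for 3, histidine, leucine and asparagine.

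**Figure D2:**
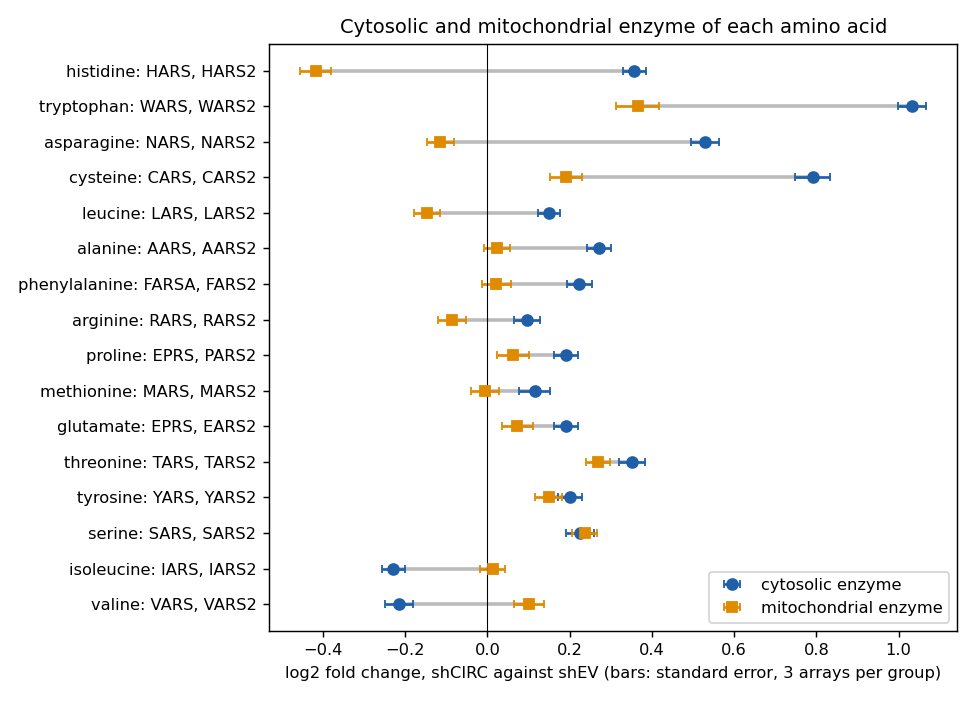
Log2 fold change of the cytosolic and the mitochondrial gene for each of 16 amino acid pairs, shCIRC against shEV, with bars for the standard error (3 arrays per group). The pairs run from histidine, 0.78 apart, to valine, where the cytosolic gene lies 0.32 below the mitochondrial one.

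HARS and HARS2 lie head to head on chromosome 5, and in the deposited annotation HARS runs from 140053489 to 140071312 on the minus strand and HARS2 from 140071198 to 140078523 on the plus strand. In that annotation the 5′ ends of the genes overlap, so no stretch lies between them. RefSeq places the starts apart. There (GRCh38.p14) the HARS start is base 140691370 and the HARS2 start is base 140691455. The 84 bases between the RefSeq starts are shown because they join 1 gene that rose and 1 that fell.
HARS to HARS2, chr5:140691371-140691454, plus strand: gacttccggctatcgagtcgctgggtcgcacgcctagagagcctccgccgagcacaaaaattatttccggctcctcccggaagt
Neither promoter window held the ATF-C/EBP letters. The changes of these neighbours were 0.36 and −0.42, and all 3 HARS and both HARS2 probe sets were called in these directions.

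The brightest probe set stood for each gene above, and the 98 probe sets of the members were also read singly. Calls of single probe sets came from a fit over all annotated probe sets except controls, with p adjusted over those. The share of all probe sets called was not computed. Of the 98, 51 were higher, 15 were lower and 32 were not called. By place, 33 of 56 cytosolic, 11 of 34 mitochondrial and 7 of 8 scaffold probe sets were higher, and 11, 4 and 0 were lower. Among 22 called members with several probe sets, 15 had all of them called the same way. The exceptions were EPRS, LARS, MARS, RARS, VARS, SARS2 and CARS2. For RARS the brightest probe set missed the call in this fit (limma adjusted p 0.054), while the second passed (0.024). No member had probe sets called in opposite directions.

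**Figure D3:**
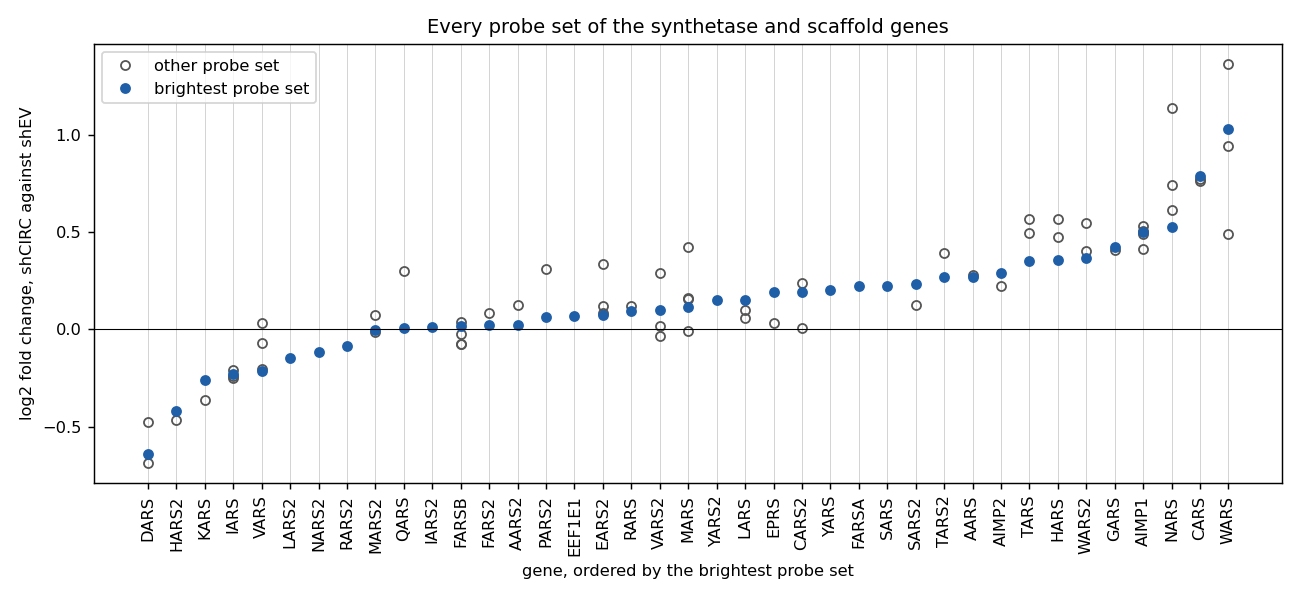
Log2 fold change of each of the 98 probe sets, shCIRC against shEV, with genes ordered along the horizontal axis and filled points for the brightest probe set. The WARS, NARS and MARS probe sets are spread widely, while the 3 of CARS lie between 0.76 and 0.79.

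All 20 cytosolic synthetases were above the median brightness, where 34.2% of genes were called higher and 34.9% lower. Among all genes the shares were 22.8% and 24.7%. The 13 cytosolic synthetases listed as known ATF4 targets were all called, 11 higher and 2 lower (IARS and VARS), with a median of 0.22. The other 7 were DARS, FARSA, FARSB, HARS, KARS, QARS and RARS, with 3 higher, 2 lower and 2 not called and a median of 0.02. Read by sequence instead, the 7 cytosolic genes with the ATF-C/EBP letters in the window had a median of 0.35 (from −0.23 to 0.79), with 6 higher and 1 lower. The 9 with a window and no match had a median of 0.19 (from −0.26 to 1.03), with 6 higher, 1 lower and 2 not called. The E-box CACGTG, searched on both strands, was found in 1 cytosolic window (IARS), 3 mitochondrial windows (CARS2, EARS2 and MARS2) and 1 scaffold window (AIMP2). It was found in 8.78% of all windows and in 11.5% of those of measured genes. By the fold of the catalytic domain, class I enzymes (19 genes, all bright) had 10 higher and 3 lower with a median of 0.10. Class II enzymes (17 genes, 15 of them bright) had 9 higher and 4 lower with a median of 0.22.

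Related gene lists give the setting of the synthetases. These lists are described by counts and medians beside the shares of all genes (22.8% higher, 24.7% lower) and of bright genes (34.2% and 34.9%), and no test compared a list with other genes or with another list. Of 10 kinases and regulators of the integrated stress response, 9 of them bright, 6 were higher, 1 was lower and 3 were not called. PPP1R15B, a subunit that directs dephosphorylation of eIF2, rose by 0.66 (limma adjusted p 1.1e-05), and EIF2S1, the eIF2 α subunit, rose by 0.27. ATF4 itself had 13.42, 13.43 and 13.43 in shEV and 13.66, 13.69 and 13.65 in shCIRC (0.24, limma adjusted p 0.00046). The GCN2 gene EIF2AK4 gave 0.09 (limma adjusted p 0.26) and was not called. In these arrays only transcript was measured, not phosphorylation or protein.

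Of 32 measured genes of the ATF4 program outside the synthetases, 20 were higher (62.5%), 6 were lower (18.8%) and 6 were not called, with a median of 0.24, and 26 of the 32 were bright. SLC7A11, the cystine transporter subunit, rose by 1.27, and DDIT4, an inhibitor of mTORC1, rose by 1.06. PYCR1, an enzyme of proline synthesis, fell by 1.07 on the log2 scale. The list therefore held members that moved strongly in both directions.

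**Figure D4:**
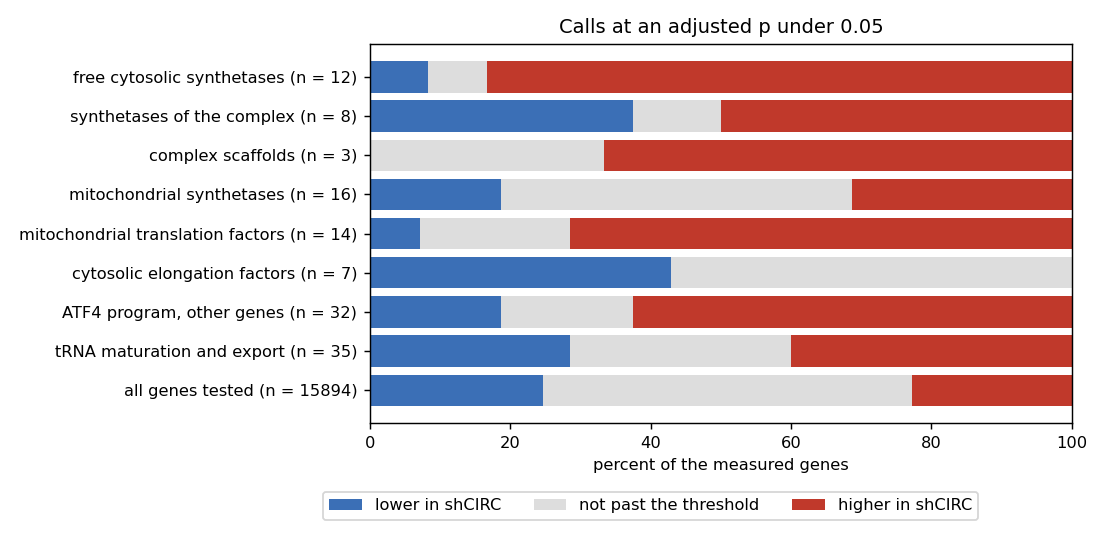
Percent of the measured genes of each list that were lower (blue), not called (grey) or higher (red) in shCIRC, with all genes in the bottom bar. The free cytosolic enzymes, with 10 of 12 higher, stand beside 22.8% of all genes. All 12 were above the median brightness, where 34.2% of genes were higher.

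Other parts of the translation machinery were read in the same way. Of 7 measured cytosolic elongation factors none was called higher and 3 were lower (42.9%, with 6 of the 7 bright), EIF5A (−0.21), EEF1D (−0.20) and EEF1B2 (−0.13). EEF1D and EEF1B2 are subunits of the exchange factor that reloads the elongation factor bringing charged tRNA to the ribosome. Mitochondrial translation factors were higher for 10 of 14 (71.4%) and lower for 1, with a median of 0.20, and 13 of the 14 were bright. GATB (0.34) and GATC (0.31), subunits of the amidotransferase that makes mitochondrial glutaminyl-tRNA, and the release factor family gene MTRF1 (0.30) led them.

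Of 35 measured genes for tRNA maturation and export, 14 were higher, 10 were lower (28.6%) and 11 were not called. With 32 of the 35 above the median brightness, these shares were near the 34.2% and 34.9% of bright genes. TSEN15, a subunit of the tRNA splicing endonuclease, fell by 0.66, while ELAC1, a tRNA 3′ processing enzyme, rose by 0.56 and CLP1, an RNA kinase associated with the endonuclease, rose by 0.55. Of 8 measured genes for selenocysteine insertion, editing and synthetase-like proteins, 2 were higher, 3 were lower (37.5%) and 3 were not called, and 4 of the 8 were bright. SECISBP2, which binds the selenocysteine insertion element, gave 0.36, the synthetase-like TARSL2 gave 0.31 and the selenocysteine elongation factor EEFSEC gave −0.31.

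The label of a colon epithelial line was read against markers. Of 8 epithelial markers 5 were measured, and the keratins KRT18 (11.2 in shEV and 10.9 in shCIRC) and KRT8 (7.70 and 8.23) and the adhesion gene EPCAM (8.54 and 8.08) were called, while KRT19 and CDX2 were not. CDH1, KRT20 and VIL1 were not read here. Of 6 measured markers of immune, endothelial, fibroblast and muscle cells, 5 were not called. ACTA2, smooth muscle actin, was higher, with means of 7.25 in shEV and 8.52 in shCIRC, and its part in the synthetase results was not tested.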

How the data were processed

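RNA of 6 RKO cell samples was hybridised to PrimeView arrays. Per the study's methods, the authors used R for quantile normalization. The deposited values are log2 signals of 49395 probe sets, 39269 of them with annotation. GCOS 1.4 is named in the submitters' notes, while background correction and probe-set summary were not given in the sources used here. Columns with the authors' own comparison (p-values, FDR and fold changes) were not used. Control probe sets (73) and those with several genes (1539) or none (199) were left out. Each of 15894 genes was represented by its brightest probe set over the 6 arrays. The log2 values were fitted with limma 3.58.1 (R 4.3.3, lmFit and eBayes, 2 groups, no covariate), and p-values were adjusted over all genes. Single probe sets were fitted the same way, with p-values adjusted over all annotated probe sets except controls. The fit was also run on simulated data with independent arrays and far fewer changed genes than here, and no result rests on that run. Groups came from the labels. Named were all 39 members and, of each related list, up to 3 called genes with the largest change. ATF4, EIF2AK4 and the cell markers were named besides. The members and lists were chosen with earlier results of these data known. Promoter windows were taken from RefSeq (GRCh38.p14). Alternatives covered scaling, probe-set choice, dim-gene filter, thresholds, other tests, the replicate block and leaving out each array. The number of arrays limits the precision.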

Additional observations from a re-analysis of the deposited data

How the results depend on the processing

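No alternative reversed a member that was called. Outside the 2 stricter thresholds, 26 of 39 members kept their call and direction (17 higher, 5 lower, 4 not called) and 13 changed call, EARS2, EEF1E1, EPRS, FARS2, LARS2, MARS, NARS2, PARS2, QARS, RARS, RARS2, SARS2 and VARS2; the cause was not tested. With a fold above 1.3 required, 4 cytosolic enzymes were higher and 1 lower, and 0 mitochondrial enzymes were higher and 1 lower. Of all members, 5 were higher and 2 lower, beside 16.9% of all genes called in either direction. Quantile normalization applied again gave 8 mitochondrial enzymes higher, with medians of 0.18 (cytosolic) and 0.0903 (mitochondrial) against 0.20 and 0.04. Arrays centred on their median gave 9 mitochondrial enzymes higher and 1 lower, with medians of 0.27 and 0.11, beside 0.07 over all genes. The medians were 0.17 and 0.0798 with cyclic loess, 0.19 and 0.0839 with the mean of all probe sets, and 0.21 and 0.0827 with the second brightest probe set. Leaving out 1 array in turn, the mitochondrial median ran from 0.0332 (without shCIRC replicate 3) to 0.0621 (without shEV replicate 3), and 19 to 21 members were higher and 6 to 7 lower. Arrays of the same replicate number shared little (correlations of deviations 0.066, 0.086 and 0.099, although each array correlated best with its own number), so the numbers were not taken as pairs. With the replicate block 19 members were higher and 7 lower, MARS (adjusted p 0.064) and RARS (0.068) losing their calls, and 7433 genes were called in place of 7546. The limma calls rest on 3 arrays a group, and nothing in the sources used here shows that these are separate cultures. Probe sets that may cross-match stood for CARS, YARS, MARS, VARS2, EARS2, IARS2 and AIMP2. Only 1 hairpin was used, and its effects cannot be told apart from those of the circular RNA.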
